A study of Mus musculus with 46 samples.

Results

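The apolipoproteins and lipoprotein assembly genes examined here are Apoa1, Apoa2, Apoa4, Apoa5, Apob, Apoc3, Apoe, Mttp and Lipc. These 9 genes were taken by symbol from the 55487 genes listed for each library, and their raw counts were followed across 13 mouse liver libraries. The series holds mouse islet and liver libraries from animals with targeted genes of mitochondrial upkeep, and its title concerns signals from mitochondria and the identity and maturity of metabolic tissues. Its 33 islet libraries are labelled Tfam control, Tfam KO, or Clec (Clec16a) control or KO on the diets HFD or RFD. They are read here only as a description. The livers comprised 6 libraries labelled control, 4 labelled Mfn DKO and 3 labelled Tfam KO, each described as a biological replicate. Mfn1 and Mfn2 encode the mitofusins, which join mitochondria, and Tfam encodes a factor that packages mitochondrial DNA and supports its transcription. The sample descriptions of all 3 liver groups, the controls included, carry the letters AAV, the usual abbreviation of adeno-associated virus. The promoter, the dose, the floxed alleles, strain, age and sex of the mice are not given in the sources used here.

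Lipoproteins carry triglyceride and cholesterol in plasma inside a shell of phospholipid and apolipoproteins. Hepatocytes build very-low-density lipoprotein (VLDL) on apolipoprotein B, to which the microsomal triglyceride transfer protein adds lipid in the endoplasmic reticulum. They also secrete apolipoproteins A-I and A-II, the main proteins of high-density lipoprotein (HDL), and hepatic lipase, which remodels the particles at the liver surface.

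Liver libraries held 41961114 to 56894510 counts, and the 9 genes had between 995 counts (Apoa4 in control replicate 2) and 1605912 counts (Apoe in control replicate 4). Together they took 4.90% to 5.52% of all counts in controls, 4.07% to 4.35% in Mfn DKO and 2.93% to 4.18% in Tfam KO livers. The targeted genes checked the labels: Tfam stood at 14.7 ± 1.42 CPM (counts scaled to TMM-corrected library sizes, SD, n = 3) in Tfam KO against 58.9 ± 4.02 in controls (n = 6), and Mfn1 and Mfn2 lay at 24.9% and 24.3% of control in Mfn DKO. All 7 hepatocyte markers found in the files were above 3 counts in every group, with summed levels of 84449 to 129357 CPM in controls, 72900 to 90705 in Mfn DKO and 21531 to 89310 in Tfam KO livers. Tfam KO replicate 2 stood apart: it had the lowest hepatocyte sum, a first principal component score of 149.8 against at most 60.7 in any other library, and a TMM factor of 1.43. It was the lowest of its group for 8 of the 9 genes and the highest for Apoa4. Results are therefore given with and without it. Sex was not labelled, but Xist ran from 380.3 to 787.8 CPM in control replicates 3, 4 and 5, Mfn DKO replicates 2 and 4 and Tfam KO replicates 2 and 3, and reached at most 0.705 CPM in the others.

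Apoa1, Apoc3, Apoa4 and Apoa5 lie together on chromosome 9, at chr9:46228580-46271919 of GRCm38, and are the 4 protein-coding genes of that stretch of 43340 bases. Apoa4 differed from control in the opposite direction to its neighbours Apoa1 and Apoc3, and Lipc, elsewhere on chromosome 9, had the lowest share of control in both knockouts, so the sequences before the starts of Apoa1, Apoa4 and Lipc are shown. They come from the RefSeq promoter table (GRCm38.p6), trimmed to end just before the GENCODE M21 start, 5′ to 3′ on the strand of the gene. The windows are chr9:46228380-46228579 (plus strand) for Apoa1, chr9:46240594-46240695 (plus strand) for Apoa4 and chr9:70952227-70952471 (minus strand) for Lipc. Capitals mark matches to CAAAGNNCA, a pattern of the kind bound by HNF4A, which was searched on both strands together with TATAAA and a longer direct repeat of nuclear receptor half-sites that can overlap it.
Apoa1: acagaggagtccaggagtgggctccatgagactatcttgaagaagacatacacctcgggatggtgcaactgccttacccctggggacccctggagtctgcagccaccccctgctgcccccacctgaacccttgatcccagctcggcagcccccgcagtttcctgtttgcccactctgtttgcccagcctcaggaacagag
Apoa4: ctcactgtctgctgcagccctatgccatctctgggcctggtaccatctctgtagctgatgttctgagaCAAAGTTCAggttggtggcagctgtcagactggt
Lipc: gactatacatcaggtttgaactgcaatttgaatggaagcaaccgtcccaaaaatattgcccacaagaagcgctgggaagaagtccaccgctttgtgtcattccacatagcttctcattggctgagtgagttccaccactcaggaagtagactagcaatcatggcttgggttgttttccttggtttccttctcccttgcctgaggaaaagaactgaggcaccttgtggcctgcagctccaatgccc
The Apoa4 window held CAAAGTTCA at bases 69 to 77, a pattern found in 2.22% of all promoter windows of 102 bases. None of the 3 patterns occurred in the Apoa1 or Lipc windows, which says only that these letters are not in them. The RefSeq starts of Apoa1 and Apoa4 lie further downstream, at chr9:46228630 and chr9:46240844. The bases between the GENCODE and RefSeq starts were cut off by the trimming and not searched. Before Apob, CAAAGNNCA (in 4.87% of windows of 221 bases) and the direct repeat (12.8%) shared bases. The direct repeat also occurred before Apoa2 and Apoa5 (14.3% of windows of 250 bases), and TATAAA occurred before Apoa2, Apoa5 and Apob (12.4% and 9.99%). Of the 9 genes, 8 had a RefSeq entry (all but Apoc3), and the Mttp window lay inside the GENCODE gene and was not searched.

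Levels were compared between genes in TPM, which the authors scaled by length. In controls Apoa2 (32705 ± 2972 TPM, SD, n = 6) and Apoe (31512 ± 2385) overlapped at the top. Apoa1 followed at 17768 ± 1387 and Apoc3 at 3593 ± 352. Apoa5 (919 ± 110) and Apob (737 ± 123) overlapped each other, and below them came Lipc (231 ± 47.8), Mttp (89.1 ± 1.88) and Apoa4 (34.8 ± 7.63) without overlap. In Mfn DKO livers Apoa4, at 117.2 to 129.7 TPM, lay above Mttp (76.9 to 103.2 TPM) in every library and overlapped Lipc (64.2 to 119.8 TPM).

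Group comparisons used the quasi-likelihood F-test of edgeR with all 13 libraries in 1 fit, and a gene was called at a Benjamini-Hochberg adjusted p of 0.05 or less over 17024 genes tested. All 9 genes were tested. Both knockouts were compared with the same 6 controls, so those comparisons are not independent. In Mfn DKO against control 2 of the 9 were called, 1 higher (Apoa4) and 1 lower (Lipc), where 9.87% of all genes were called, 5.23% higher and 4.64% lower. Leaving out Tfam KO replicate 2, whose spread enters the shared fit, gave 6 of 9 (1 higher, 5 lower), against 19.5% of all genes (9.56% higher, 9.95% lower). Leaving out Tfam KO replicate 3 gave 4 of 9 against 16.5%, and leaving out Mfn DKO replicate 1 or 2 gave 1 of 9, Apoa4, against 4.05% and 4.69% of all genes. In Tfam KO against control 5 of the 9 were called, with Apoa4 higher and Apoa1, Apoc3, Apoe and Lipc lower, against 29.3% of all genes (18.1% higher, 11.3% lower). This was 6 of 9 (1 higher, 5 lower) against 14.5% (8.51% higher, 5.95% lower) without replicate 2, 8 of 9 against 41.8% without replicate 3, and 1 of 9 against 19.1% without replicate 1, where Apoa4 was the gene called. The median log2 fold change of the 9 genes was -0.40 in Mfn DKO and -0.88 in Tfam KO, beside 0.02 and 0.03 over all genes. The Tfam KO median was -0.68 without Tfam KO replicate 2 and -1.32 without replicate 3, and scaling by total counts gave -0.20 and -0.56, beside all-gene medians of 0.21 and 0.46. Groups did not overlap with control for 6 of 9 genes in Mfn DKO, where Apoa4 was higher and 5 were lower (19.2% of all genes, 8.95% higher and 10.3% lower). In Tfam KO this held for 8 of 9, Apoa4 higher and 7 lower (20.9% of all genes, 10.7% higher and 10.2% lower). These overlaps were read on TMM-scaled CPM. With CPM on total counts, Apoe in Mfn DKO and Apoa2, Apoa5, Apoc3 and Mttp in Tfam KO did overlap the controls.

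**Figure D1:**
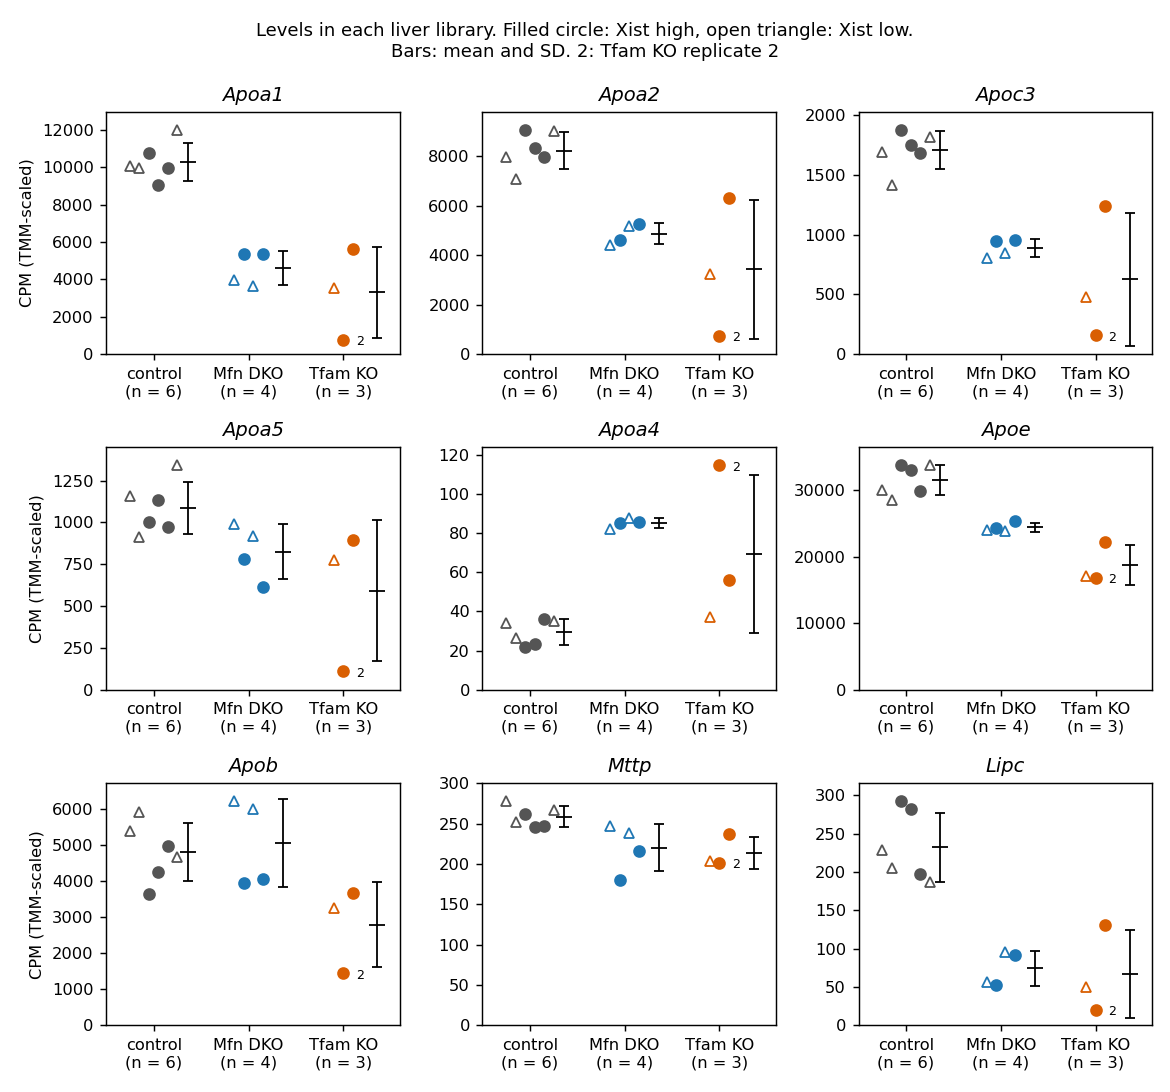
Each panel plots 1 gene in CPM on TMM-scaled library sizes for 6 control, 4 Mfn DKO and 3 Tfam KO livers, with points for libraries, bars for mean and SD, and symbols for Xist level. Apoa4 is the 1 gene whose knockout libraries all lie above the controls, and Tfam KO replicate 2 is at the bottom of its group in the other 8 panels.

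Apoa1 (ENSMUSG00000032083) encodes apolipoprotein A-I, which accepts cholesterol from cells and activates the enzyme that esterifies it. Control livers had 9030 CPM at the lowest, 10004 at the median and 12014 at the highest. Mfn DKO replicates 1 to 4 had 3980, 5365, 3642 and 5376 CPM, and Tfam KO replicates 1 to 3 had 3532, 785 and 5627 CPM. Every knockout library lay below every control library. The Mfn DKO mean was 44.6% of control (log2 fold change -1.16 ± 0.40, SE), with an edgeR adjusted p of 0.0803 over all libraries and 0.00104 without Tfam KO replicate 2. Apoa1 fell in Tfam KO livers, to 32.2% of control (log2 -1.63 ± 0.45, edgeR adjusted p = 0.0185), and to 44.6% without replicate 2 (adjusted p = 0.00651). The Tfam KO call was lost without Tfam KO replicate 1 (edgeR adjusted p = 0.0554) and when the Mfn DKO livers were left out of the fit (0.0545).

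Apoa2 (ENSMUSG00000005681, chr1:171225054-171226379) encodes apolipoprotein A-II, the other main protein of HDL. Its control values ran from 7052 over a median of 8131 to 9059 CPM. The Mfn DKO livers had 4396, 4605, 5184 and 5261 CPM, and the Tfam KO livers 3228, 734 and 6312 CPM, again with no overlap with controls. On total counts, Tfam KO replicate 3 (6534 CPM) lay above the lowest control (6364). Neither difference was called over all libraries, with 59.2% of control in Mfn DKO (log2 -0.76 ± 0.41, edgeR adjusted p = 0.244) and 41.7% in Tfam KO (log2 -1.26 ± 0.46, adjusted p = 0.0549). Both were called when Tfam KO replicate 2 was left out, at edgeR adjusted p of 0.00889 and 0.0307, with 59.2% and 58.1% of control.

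Apoc3 (ENSMUSG00000032081) encodes apolipoprotein C-III, an inhibitor of lipoprotein lipase and of the uptake of remnant particles. Controls ran from 1418 over a median of 1716 to 1877 CPM. Values were 805, 944, 842 and 959 CPM in Mfn DKO and 475, 160 and 1242 CPM in Tfam KO replicates 1 to 3. All 7 knockout libraries lay below the controls on this scale, but on total counts Tfam KO replicate 3 (1286 CPM) lay above the lowest control (1280). In Tfam KO livers Apoc3 fell to 36.7% of control (log2 -1.45 ± 0.44, edgeR adjusted p = 0.0281), and it lay at 50.4% without replicate 2 (adjusted p = 0.0308). The call was lost without Tfam KO replicate 1 (edgeR adjusted p = 0.104) and with the Mfn DKO livers left out (0.0713). In Mfn DKO the mean was 52.1% of control (log2 -0.94 ± 0.39), with an edgeR adjusted p of 0.138, or 0.00928 without Tfam KO replicate 2.

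Apoa5 (ENSMUSG00000032079) encodes apolipoprotein A-V, which promotes triglyceride clearance by lipoprotein lipase. Control livers had 913 CPM at the lowest, 1068 at the median and 1341 at the highest. The Mfn DKO livers had 992, 780, 916 and 616 CPM and overlapped the controls. Tfam KO livers had 773, 110 and 896 CPM, all below the lowest control, though replicate 3 was close to it. On total counts, Tfam KO replicates 1 and 3 (899 and 927 CPM) lay above the lowest control (824). Apoa5 was not called in either comparison (log2 -0.40 ± 0.40 with an edgeR adjusted p of 0.547, and log2 -0.88 ± 0.45 with 0.161), nor in any fit that left out 1 library.

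Apoa4 (ENSMUSG00000032080, chr9:46240696-46243459) encodes apolipoprotein A-IV, a protein of triglyceride-rich particles and HDL that intestine makes in quantity and liver makes at lower levels. Control livers had 21.8 CPM at the lowest, 30.3 at the median and 36.4 at the highest. Mfn DKO livers had 82.0, 85.1, 87.8 and 85.5 CPM, a narrow band far above the controls. Tfam KO replicates 1 to 3 had 37.1, 114.6 and 55.9 CPM, of which replicate 1 lay just above the highest control. Apoa4 rose 2.88-fold in Mfn DKO (log2 1.53 ± 0.25, edgeR adjusted p = 0.00348) and 2.34-fold in Tfam KO livers (log2 1.23 ± 0.27, adjusted p = 0.0063). Both calls held in each of the 13 fits that left out 1 library. With Tfam KO replicate 2 left out, Apoa4 in Tfam KO was 157.5% of control (log2 0.66 ± 0.20, edgeR adjusted p = 0.0456). Within the Xist-high livers Apoa4 stood at 314% of control in Mfn DKO and within the Xist-low livers at 266%, and in Tfam KO the 2 Xist-high livers averaged 313.8% (205.7% for replicate 3 alone) and the 1 Xist-low liver 116%. Apoa4 exons overlap those of Gm47528, which had at most 21 counts in any liver, and of Gm10680, which had 0.

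**Figure D2:**
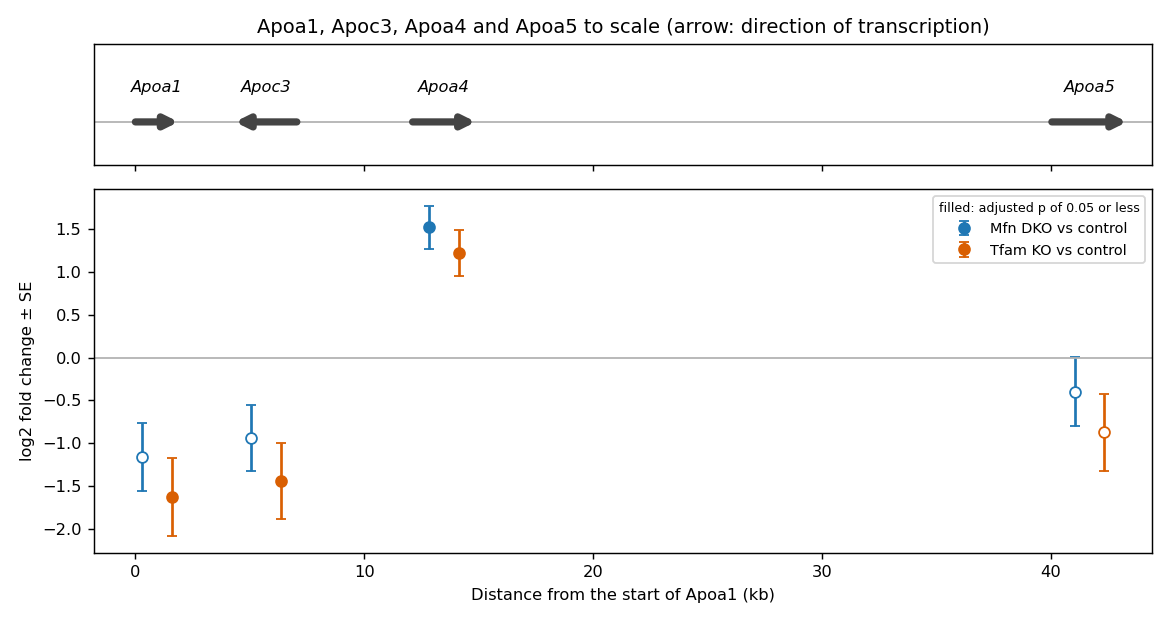
The upper panel draws the 4 genes of the chromosome 9 cluster to scale by distance from the start of Apoa1 in kb, and the lower panel plots their log2 fold changes ± SE (edgeR) against the same controls. Apoa4 lies at 1.53 and 1.23, above 0, between Apoc3 and Apoa5, which lie below 0.

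Apoe (ENSMUSG00000002985, chr7:19696109-19699188) encodes apolipoprotein E, the ligand by which remnant particles bind receptors of the LDL receptor family. It was the gene of the 9 with most counts, at 28624 to 33777 CPM in controls with a median of 31546. Mfn DKO livers had 24091, 24394, 23909 and 25365 CPM, and Tfam KO livers 17101, 16877 and 22238 CPM. On this TMM scale the 3 groups did not overlap each other. On total counts, Mfn DKO replicate 4 (26262 CPM) lay above control replicate 2 (25830), and Tfam KO replicate 2 (24142) above Mfn DKO replicate 1 (23959). In TPM the Mfn DKO livers (29242 to 31056) lay within the control range (28612 to 34048), and the Tfam KO livers (25015 to 32849) overlapped it. The mean TPM was 31512 in controls, 30105 in Mfn DKO and 28616 in Tfam KO. In Tfam KO livers Apoe fell to 59.5% of control (log2 -0.75 ± 0.24, edgeR adjusted p = 0.0358), or 62.5% without replicate 2 (adjusted p = 0.0121). That call was close to the threshold: it was kept in 3 of 13 fits that left out 1 library, over which the adjusted p ran from 0.00713 to 0.122. It was also lost with libraries scaled by total counts (log2 -0.34, edgeR adjusted p = 0.134) and with the Mfn DKO livers left out (0.136). The Mfn DKO mean was 77.5% of control (log2 -0.37 ± 0.22, adjusted p = 0.295), with an adjusted p of 0.0375 without Tfam KO replicate 2.

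Apob (ENSMUSG00000020609, chr12:7977648-8016835) encodes apolipoprotein B, the structural protein of each VLDL particle. Controls ran from 3647 over a median of 4821 to 5928 CPM. Mfn DKO replicates 1 to 4 had 6225, 3944, 5989 and 4060 CPM, across the control range. Their mean was 105.1% of control (log2 0.07 ± 0.27, edgeR adjusted p = 0.886), with an approximate 95% interval of -0.45 to 0.59, from the SE and a normal quantile. The highest pair of Mfn DKO values came from the Xist-low livers and the lowest from the Xist-high livers, and within these classes the means were 114.5% and 93.4% of control. Tfam KO livers had 3247, 1448 and 3662 CPM, of which replicate 3 lay within the control range. Their mean was 57.9% of control (log2 -0.79 ± 0.30, adjusted p = 0.066), or 71.9% without replicate 2 (adjusted p = 0.175).

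Mttp (ENSMUSG00000028158, chr3:138089854-138144968) encodes the large subunit of the microsomal triglyceride transfer protein. It varied little among controls, from 246.3 over a median of 257.5 to 278.5 CPM. Mfn DKO livers had 246.7, 180.7, 238.2 and 216.3 CPM and touched the control range, and Tfam KO livers had 204.5, 201.4 and 237.0 CPM, below it. The means were 85.1% of control in Mfn DKO (log2 -0.23 ± 0.11, edgeR adjusted p = 0.2) and 82.8% in Tfam KO (log2 -0.27 ± 0.12, adjusted p = 0.113). Neither was called, and with total counts the Tfam KO difference changed sign to 0.15. In TPM the Tfam KO livers (102.8 to 135.0) lay above the controls (87.1 to 91.5). Mttp shares 457 exon bases with Trmt10a on the other strand, which had 202 to 1151 counts, and whether the counting used strand is not given in the sources used here.

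Lipc (ENSMUSG00000032207, chr9:70798128-70952226) encodes hepatic lipase, which hydrolyses triglyceride and phospholipid of HDL and remnants. Control livers had 186.9 CPM at the lowest, 216.7 at the median and 292.7 at the highest. Mfn DKO livers had 56.6, 52.3, 96.04 and 91.8 CPM, and Tfam KO livers 50.0, 20.2 and 130.7 CPM. No knockout library reached the lowest control. Lipc fell to 32.0% of control in Mfn DKO (log2 -1.65 ± 0.41, edgeR adjusted p = 0.0254) and to 28.8% in Tfam KO livers (log2 -1.79 ± 0.46, adjusted p = 0.0124). Without Tfam KO replicate 2 the values were 32.0% and 39.0% (adjusted p = 0.00229 and 0.0265). The Mfn DKO call was lost without Mfn DKO replicate 1 (edgeR adjusted p = 0.0856) or 2 (0.0789), and the Tfam KO call without Tfam KO replicate 1 (0.0561). Within Xist-high and Xist-low livers the Mfn DKO means were 28.0% and 36.9% of control.

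**Figure D3:**
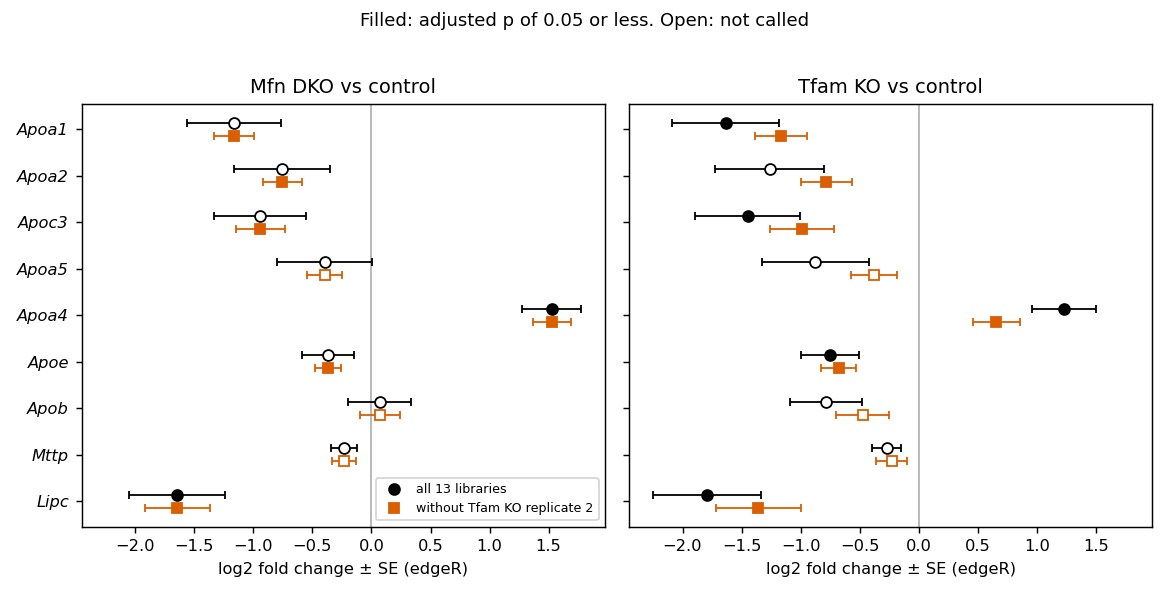
Points are log2 fold changes ± SE from edgeR for the 9 genes in each knockout against the 6 controls, with all 13 libraries (circles) and without Tfam KO replicate 2 (squares), filled at an adjusted p of 0.05 or less. Apoa4 lies above 0 in both panels, and Lipc has the most negative value in both.

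The knockouts were also compared with each other. In Tfam KO against Mfn DKO 0 of the 9 genes were called by edgeR, where 50 of 17024 genes (0.294%, 0.106% higher and 0.188% lower) were called. Leaving out Tfam KO replicate 2 also gave 0 of 9, against 0.283% of all genes (0.104% higher, 0.179% lower). Over all libraries 1 of 9, Apob, had an unadjusted edgeR p under 0.05, as did 20.4% of all genes, with a Tfam KO mean at 55.1% of Mfn DKO (log2 -0.86 ± 0.32, edgeR adjusted p = 0.167). The DESeq2 Wald test called 1, Apoe (log2 -0.39, adjusted p = 0.0222), and edgeR without Tfam KO replicate 3 called 4 (Apoa2, Apob, Apoc3 and Lipc, all lower in Tfam KO), beside 24.0% of all genes. Approximate 95% intervals of the difference ran from -0.89 to 0.29 for Apoa4, from -1.04 to 0.74 for Lipc and from -1.37 to 0.43 for Apoa1. They were made from the SE with a normal quantile, and so are somewhat too narrow for so few libraries. On TMM-scaled CPM, groups did not overlap for 2 of 9 genes, Apob and Apoe, both lower, against 10.8% of all genes (5.72% higher, 5.1% lower). On total counts Apoe did overlap.

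Hepatocyte markers and other cell types were read beside these values. Of 7 hepatocyte markers 0 were called in Mfn DKO (median log2 -0.35) and 3 were lower in Tfam KO (median -0.89). Of all genes, 9.87% and 29.3% were called, 4.64% and 11.3% lower. Marker calls were made only with all libraries, Tfam KO replicate 2 included. Of the other lists, 1 Kupffer cell marker was called higher in each knockout, 1 stellate marker was higher in Mfn DKO, and 1 stellate and 1 endothelial marker were higher and 1 stellate marker lower in Tfam KO. One intestinal marker of 2 tested was lower in each knockout, and 0 cholangiocyte, lymphocyte or erythroid markers were called. Summed Kupffer cell and macrophage markers (11 genes) ran from 621 to 1176 CPM in controls, 820 to 1788 in Mfn DKO and 396 to 1172 in Tfam KO livers. Stellate markers (8 genes) summed to 121.3 to 151.6, 156.8 to 186.2 and 137.4 to 160.2 CPM in the same order, and cholangiocyte markers (7 genes) to 32.8 to 69.5, 55.1 to 103.8 and 27.3 to 127.9 CPM. Intestinal markers (6 genes), read because intestine makes Apoa4, summed to 98.0 to 171.1 CPM in controls, 28.0 to 57.1 in Mfn DKO and 12.97 to 78.3 in Tfam KO livers. Of them, Cdx2 stayed at or under 3 counts in every liver group, and Sis and Alpi did so in both knockouts. The part of cell composition in the member values was not tested, and in bulk tissue fewer hepatocytes and less RNA per hepatocyte cannot be told apart.

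Other genes of lipoprotein metabolism were followed in 6 lists, to be read beside the share of all genes called, which was 5.23% higher and 4.64% lower in Mfn DKO and 18.1% higher and 11.3% lower in Tfam KO (9.56%, 9.95%, 8.51% and 5.95% without Tfam KO replicate 2). Among 13 other apolipoproteins tested, 0 were called in Mfn DKO (median log2 -0.43) and 2 fell in Tfam KO (median -1.17, or -0.73 without replicate 2). Apoh, which encodes beta-2-glycoprotein I, fell to 36.7% of control in Tfam KO (edgeR adjusted p = 0.0374), from 2606 to 3277 CPM in controls to 207 to 2055 CPM. Apoc1, a small exchangeable apolipoprotein, fell to 44.3% (edgeR adjusted p = 0.0442). Both calls were near the threshold and were kept in 5 and 2 of 13 fits that left out 1 library (edgeR adjusted p up to 0.107 and 0.125, without Tfam KO replicate 1). With Tfam KO replicate 2 left out, 4 genes of the list were lower in Mfn DKO and 5 in Tfam KO. Saa4, a constitutive serum amyloid A, had 483 to 1152 CPM in controls, 203 to 322 in Mfn DKO and 12.5 to 404 in Tfam KO (edgeR adjusted p = 0.138 and 0.0605). Without Tfam KO replicate 2 Saa4 was called in both (edgeR adjusted p = 0.00566 and 0.0389). Apof, which encodes apolipoprotein F, a regulator of lipid transfer between particles, stood at 61.1% and 36.4% of control (edgeR adjusted p = 0.338 and 0.0539). Without Tfam KO replicate 2 Apof had edgeR adjusted p of 0.0482 in Mfn DKO and 0.0535 in Tfam KO.

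Of 22 genes for assembly and secretion of apoB particles, 1 was called in Mfn DKO (lower) and 8 in Tfam KO (1 higher, 7 lower), with medians of -0.11 and -0.32 (-0.15 in Tfam KO without replicate 2). Sar1b, the small GTPase of the COPII coat that exports large lipoproteins, fell from 234 to 284 CPM in controls to 128 to 168 in Mfn DKO (57.3% of control, edgeR adjusted p = 0.0354) and 69.8 to 193.7 in Tfam KO (51.3%, adjusted p = 0.0116). The Mfn DKO call was kept in 3 of 13 fits that left out 1 library. Cideb, a lipid droplet protein needed to load VLDL with lipid, fell to 38.7% of control in Tfam KO (edgeR adjusted p = 0.00914) and stood at 63.8% in Mfn DKO (adjusted p = 0.159). Without Tfam KO replicate 2 Cideb was called in both (edgeR adjusted p = 0.00403 in Tfam KO and 0.00385 in Mfn DKO). Sec16b, a scaffold of endoplasmic reticulum exit sites, fell to 48.6% in Tfam KO (edgeR adjusted p = 0.0194), and Vmp1, which supports lipoprotein release from the membrane, rose 1.94-fold (adjusted p = 0.0135). Neither was called without Tfam KO replicate 1 (edgeR adjusted p = 0.0796 and 0.074) or 2 (0.0525 and 0.066), and without replicate 2 the list had 2 lower calls in Tfam KO, and 3 lower and 1 higher in Mfn DKO.

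Among 20 genes of lipid supply, 0 were called in Mfn DKO (median -0.22) and 2 rose in Tfam KO (median -0.43, or -0.16 without replicate 2), fewer than the share of all genes. These were Hilpda, an inhibitor of adipose triglyceride lipase (5.16-fold, edgeR adjusted p = 0.0068), and Plin2, the lipid droplet coat protein (2.61-fold, adjusted p = 0.0223). Both calls were lost without Tfam KO replicate 2, when Hilpda stood at 178.1% of control (edgeR adjusted p = 0.131) and Plin2 at 118.6% (adjusted p = 0.488), and 2 other genes of the list were lower. Among 10 genes of HDL formation and remodelling, 0 were called in Mfn DKO (median -0.17) and 3 fell in Tfam KO (median -0.65, or -0.46 without replicate 2). With replicate 2 left out, 2 were lower in Mfn DKO and 3 in Tfam KO. Abcg5 and Abcg8, the 2 subunits of the sterol transporter into bile, fell to 47.9% and 41.8% of control (edgeR adjusted p = 0.00229 and 0.00142). Abcg8 had 104.8 to 201.1 CPM in controls and 54.0 to 67.9 CPM in Tfam KO livers. Both calls held in all 13 fits that left out 1 library. Bmp1, the protease that matures apolipoprotein A-I, fell to 62.5% (edgeR adjusted p = 0.0127), but was not called without Tfam KO replicate 1 or 2 (0.0621 and 0.0626) or with total counts (0.117).

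Of 19 lipases, their regulators and receptors, 2 rose and 1 fell in Mfn DKO (median 0.06), and 3 rose and 2 fell in Tfam KO (median -0.12). With Tfam KO replicate 2 left out, 4 were higher and 1 lower in Mfn DKO, and 0 higher and 1 lower in Tfam KO (median 0.02). Vldlr, a receptor for triglyceride-rich particles, rose from 2.72 to 13.3 CPM in controls to 31.0 to 64.9 in Mfn DKO (6.09-fold, log2 2.61 ± 0.47, edgeR adjusted p = 0.00588) and 22.7 to 63.1 in Tfam KO (4.62-fold, adjusted p = 0.0067). Left without replicate 2, Tfam KO livers had Vldlr at 297.8% of control (edgeR adjusted p = 0.0514). Lpl, lipoprotein lipase, which adult liver makes little of, rose from 14.04 to 23.2 CPM to 30.1 to 117.8 in Mfn DKO (4.13-fold, edgeR adjusted p = 0.0209) and 28.3 to 174.6 in Tfam KO (4.715-fold, adjusted p = 0.00745). Macrophages also make Lpl, and the Mfn DKO call was lost without Mfn DKO replicate 2 (edgeR adjusted p = 0.073) or 4 (0.057). In Tfam KO without replicate 2 Lpl stood at 192.1% of control (edgeR adjusted p = 0.121). Lmf1, the maturation factor that hepatic lipase and lipoprotein lipase both need, fell to 64.8% in Mfn DKO (edgeR adjusted p = 0.0141) and 62.9% in Tfam KO (adjusted p = 0.00694). Both Lmf1 calls held in every fit that left out 1 library, but the Tfam KO call was lost with total counts (log2 -0.27, edgeR adjusted p = 0.0693).

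**Figure D4:**
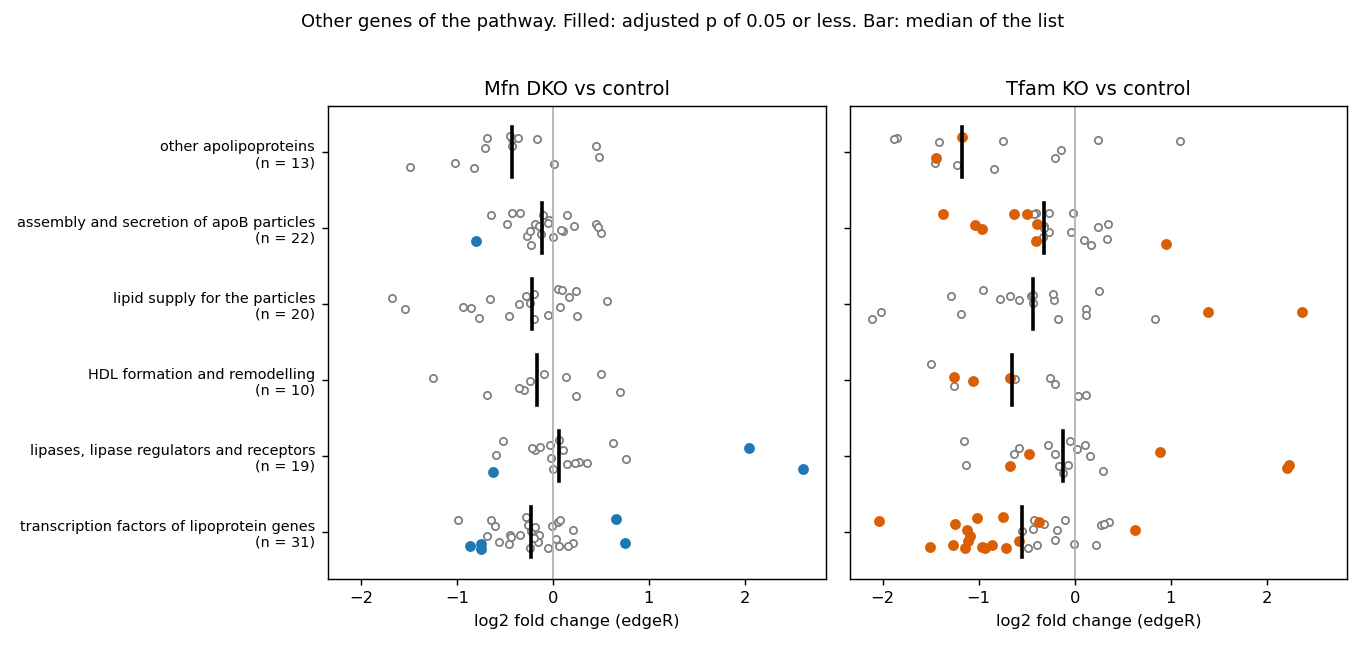
Each point is the log2 fold change (edgeR) of 1 gene of a pathway list in Mfn DKO or Tfam KO against control, filled where the adjusted p was 0.05 or less, and each bar is the median of the list. Vldlr and Lpl are the filled points beyond 2 among the lipases and receptors, and the transcription factors hold 16 filled points below 0 in Tfam KO.

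Transcription factors of lipoprotein genes (31 tested) were called higher for 2 and lower for 3 in Mfn DKO (median -0.23), and higher for 1 and lower for 16 in Tfam KO (median -0.55, or -0.30 without replicate 2). Creb3l3, which encodes CREBH, a liver factor known to activate Apoa4 among other lipid genes, fell from 337 to 419 CPM in controls to 215 to 241 in Mfn DKO (59.7%, log2 -0.74 ± 0.11, edgeR adjusted p = 0.00149) and 180 to 203 in Tfam KO (49.5%, log2 -1.01 ± 0.12, adjusted p = 0.00032). Foxa2, a pioneer factor of hepatocyte genes, fell to 55.0% and 45.3% (edgeR adjusted p = 0.0235 and 0.0047). Nr2f2, which encodes COUP-TFII, and Foxo3 fell in Tfam KO to 52.2% and 46.4% (edgeR adjusted p = 0.00193 and 0.00498) and missed the threshold in Mfn DKO (0.0534 and 0.0506). Without Tfam KO replicate 2 both were called lower in Mfn DKO (edgeR adjusted p = 0.0326 and 0.0212). Foxa2 in Mfn DKO was not called without Mfn DKO replicate 1 or 2 (0.0827 and 0.0722). Leaving out Tfam KO replicate 2, the list had 9 lower and 1 higher calls in Tfam KO, and 9 lower and 2 higher in Mfn DKO.

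The genes whose log2 CPM followed each member most closely over the 13 livers are given as a description, since the libraries share the group differences. Apoa1 ran with Dnajc25 (Pearson r = 0.99) and Ces1f (0.99), Apoa2 with Apoh and Entpd8 (both 0.99), and Apoc3 with Slc31a1 and Gm17634 (both 0.99). Lipc ran with Fabp1, the liver fatty acid binding protein (0.98), and Acad11 (0.97), and Mttp with Cpt2 (0.95) and Lamp2 (0.91). Apob ran with Elk4 and Aldh5a1 (both 0.97), Apoe with Zfp354a and Gm21926 (both 0.97) and Apoa5 with Fggy and Amy1 (0.99 and 0.98). Apoa4 ran with Hrk (0.96) and BC016579 (0.92), both near the floor in controls (mean 0.30 and 0.069 CPM). With the group means removed, r with Apoa4 was 0.85 for Hrk and 0.63 for BC016579. Among the members, Apoa2 and Apoc3 were the closest pair (0.99), and with the group means removed r was 0.98. For Apoa2 the Tfam KO livers, replicate 2 included, had the widest spread within a group (SD 2794 CPM, against 749 in controls and 427 in Mfn DKO). For Apob and Mttp the Mfn DKO livers had the widest spread (SD 1220 and 29.5 CPM, against 1177 and 19.8 in Tfam KO). No correlation was computed without Tfam KO replicate 2. Apoa4 ran against Lipc (-0.82) and Apoa1 (-0.76) over the 13 livers, and with the group means removed these were -0.57 and -0.65.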

How the data were processed

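RNA of 46 mouse libraries was deposited with raw counts, TPM and CPM per gene, per the file headers, and 13 liver libraries were analysed for group differences. Counts entered the fits as deposited, with no rounding. The CPM columns of the authors are counts over the library total, so CPM printed here for livers was recomputed on TMM-scaled library sizes. The authors' TPM, whose length scaling is theirs, was used to compare levels between genes. It also served as an alternative scale for group differences of the members. The submitters' processing notes name FastQC, STAR 2.6.1b, RSEM 1.3.1, featureCounts, DESeq2, MultiQC and GRCm38. Which program made the counts is not given in the sources used here. Of the 55487 identifiers, 55141 were in GENCODE M21.

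Total counts per liver library ran from 41961114 to 56894510, so counting error was small for all 9 genes, and the spread between replicates set the precision. Groups were taken from the labels. The fit used edgeR 4.0.16 in R 4.3.3 (quasi-likelihood F-test, two-sided, TMM, filterByExpr, 1 mean per group, all 13 livers) with Benjamini-Hochberg adjustment over 17024 genes. SE was the log2 fold change over the square root of F. On simulated data with 16639 genes for Mfn DKO against control, 38.4% of 2-fold and 80.4% of 4-fold changes were recovered and 4.92% of calls fell on unchanged genes.

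The members and the pathway lists were chosen with earlier results of these data known. Named genes are the 9 members, Tfam, Mfn1 and Mfn2, up to 4 genes per list with the smallest adjusted p in either comparison with control, and the 2 genes closest to each member by correlation. One gene that the rule picks is not reported here. Genes named outside this rule serve only as overlapping genes or markers. Alternatives were DESeq2 size factors, the Wald test of DESeq2 1.42.0, no filter or at least 10 counts in every library, only the compared groups, Xist level as a covariate, the replicate number as a block, leaving out each library, and, added after seeing the data, total counts in place of TMM.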

Additional observations from a re-analysis of the deposited data

Results flagged for a closer look

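Within groups of 4 or 6 livers, 64 sets of values of 32 genes were searched for a library far from the others, a rule that chance meets in about 1 of 20 groups, and it was met by 2. Hilpda stood at 6.15 CPM in Mfn DKO replicate 4, while the other Mfn DKO livers had 2.14 to 2.76 CPM. Pnpla2, the adipose triglyceride lipase, stood at 86.6 CPM in Mfn DKO replicate 2, while the others had 79.9 to 80.8 CPM.

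Islet libraries entered no comparison. Apoa4, Apoa1, Apob and Apoc3 stood far above the level of a count of 0 in Clec16a control islets on HFD replicate 2, and also in replicate 5 of that group. Both libraries were picked for the highest Apoa4 among the islets, so their high Apoa4 follows from the choice. In replicate 2 Apoa5 had 0 counts, and Apoa2 and Apoe ranked 9 and 10 among the islet libraries. Replicate 2 had Apoa4 at 195.7 CPM on total counts (median of the other 32 islet libraries 0), Apoa1 at 122.8 CPM (median 0.369), Apob at 17.0 CPM (0.366) and Apoc3 at 6.52 CPM (0.0709). Replicate 5 had Apoa4, Apoa1, Apob and Apoc3 at 140.5, 50.7, 9.40 and 4.14 CPM, and the highest values in the remaining 31 islet libraries were 42.3, 26.0, 3.46 and 2.28 CPM. In replicate 2 the intestinal markers Fabp2, Sis, Lct and Alpi stood at 27.3, 19.1, 13.6 and 27.4 CPM, where the medians of the other islets were 0.0345, 0, 0.207 and 0. Fabp2, Sis and Lct in replicate 5 stood at 13.97, 10.1 and 7.12 CPM. Alpi was higher than in replicate 2 in 2 other islet libraries. Replicate 5 had the highest Alpi, 38.3 CPM, and the remaining 31 islet libraries reached at most 32.5 CPM. Vil1 was higher than in replicate 2 in 1 islet library (166.6 CPM). In replicate 2 Vil1 stood at 163.7 CPM (median 106.1) and Cdx2 at 0.886 CPM (median 0.0265). The part of intestinal cells in these values was not tested.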

How the results depend on the processing

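Of 1569 gene values recomputed under alternatives, 1377 counted as the same, 11 as moved, and 17 fold changes changed sign. A fold change was the same if it kept its direction and side of the threshold. The values include ratios of group mean levels in plain CPM and TPM, which have no threshold. Those were judged by the size of the shift against the spread, and sign changes of ratios for genes not called were not counted. Members called in Mfn DKO against control were 2, with 4 by the DESeq2 Wald test, 6 with only the compared groups and 1 to 6 over fits that left out 1 library. For Tfam KO against control they were 5, with 8 (Wald), 2 (compared groups only) and 1 to 8, and for Tfam KO against Mfn DKO 0, with 1 (Wald) and 0 to 4. The counts of all genes called were 1681, 4992 and 50. By the Wald test they were 2870, 5884 and 1087, and with only the compared groups they were 4338, 3228 and 7. Leaving out 1 library gave 686 to 3379, 2504 to 7330 and 24 to 4204. The lowest came without Mfn DKO replicate 1, Tfam KO replicate 2 and Mfn DKO replicate 1, and the highest without Tfam KO replicate 2, 3 and 3. The third count was 27 with at least 10 counts in every library. Total counts in place of TMM moved the median of all genes to 0.21, 0.46 and 0.25 and gave 2009 calls (1653 higher, 356 lower), 8154 (7250 and 904) and 1226 (1140 and 86), beside 891 and 790, 3073 and 1919, and 18 and 32 with TMM. The cause of these changes was not tested.

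The log2 fold changes that changed sign were not called with all libraries and TMM. In Mfn DKO, Apob ran from -0.044 (without Mfn DKO replicate 1) to 0.17 over fits that left out 1 library, with -0.0066 and -0.020 without control replicate 3 and Mfn DKO replicate 3. Plin2 ran from -0.22 to 0.10 and Scarb1 from -0.18 to 0.025, and total counts gave 0.15 and 0.10. In Tfam KO, Mttp was 0.15 with total counts and -0.37 to -0.23 with 1 library left out. Between the knockouts, Apoa4 ran from -0.87 to 0.0017 (0.017 with total counts), Apoa5 from -0.90 to 0.015, and Mttp from -0.13 to 0.017, with 0.0032 without Tfam KO replicate 2 and 0.19 with total counts. Lipc ran from -1.08 to 0.28 there, with 0.00073 and 0.022 without Mfn DKO replicate 3 and Tfam KO replicate 1.

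Whether replicate numbers pair the libraries is not stated in the labels. The 10 same-numbered pairs had a median correlation of 0.0873 (-0.343 to 0.350), and the 44 other pairs a median of -0.0450. Of 11 libraries, 4 correlated best with their own number. So few pairs cannot decide the question. With the replicate number as a block, members called were 1, 1 and 0, and all genes 169, 395 and 6. Apoa4 was then at adjusted p of 0.0507 and 0.0625, and Lipc at 0.0495 and 0.0475. Of the named pathway genes called in Mfn DKO (6) and Tfam KO (18), 0 and 4 were then called, Creb3l3 in Tfam KO among them.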

Other observations

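The 9 genes were also read in islets, as plain CPM on total counts with no test. Apoe ran from 87.1 to 231.3 CPM in 18 control islet libraries, beside 25830 to 30474 in 6 control livers, and Mttp from 14.8 to 37.4 CPM, beside 224.9 to 239.9. Apoa5 had at most 2 counts in any of 33 islet libraries. Apoa4 was above 3 counts in 7 of the 33 islet libraries. Apoa2 was above 3 counts in all of them, at no more than 6.28 CPM.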
